A study of Homo sapiens with 12 samples.

Results

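The G2 and mitosis genes examined here are a list of 49 genes whose transcripts accumulate as cells pass from DNA replication into division. They were taken by name from a fixed list, and each symbol was matched to its Ensembl identifier through GENCODE. All 49 matched, out of 33707 gene identifiers in the deposited tables, and 48 had at least 1 UMI in every library with UMIs. GAS2L3, a linker of microtubules and actin, was the exception, as it had none in the wells of extracted RNA. The members' UMIs were summed in every well and divided by all UMIs of the well, which gives the member share.

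LAST-seq, which amplifies the RNA of a cell directly by in vitro transcription, was used on HEK293T, a human embryonic kidney line that carries the SV40 large T antigen, and on eHAP1, a near-haploid human line. HEK293T was given as 2 libraries of 10 live-sorted single cells with no gate on the cell cycle. There were also 10 wells of 15-pg total RNA, which are no cells, and 10 wells of single-cell lysate. Whether each lysate well held the lysate of its own cell is not stated in the sources used here. The same line was profiled by CEL-seq2, which reverse transcribes before linear amplification, as 2 libraries of 10 cells and 1 of 10 lysate wells, and 6 cells by SMART-seq in sequencing reads. The eHAP1 cells were WT or SCC4KO, a clone in which Cas9 was used to knock out SCC4 (the gene MAU2), a subunit of the cohesin loader. Both genotypes had been subcloned from single cells, grown with 10-deacetylbaccatin III, a taxane that keeps the culture haploid, and sorted as live cells with the DNA content of haploid G1, in 2 batches each (WT 73 and 75 cells, SCC4KO 77 and 76). Each genotype was therefore 1 clone, and cells of a batch are not replicates of a genotype.

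A cell enters mitosis when CDK1, bound to a B-type cyclin, becomes active. Polo-like and Aurora kinases then build the spindle, centromere proteins hold the chromosomes to it, and the anaphase-promoting complex (APC/C) with CDC20 marks cyclin B for destruction so that the cell can exit. Most of the genes for these proteins are silenced in G1 by the DREAM complex and are switched on late in the cycle by B-MYB and FOXM1. The 2 promoter elements known for this control are the CHR, most often written TTTGAA, and the CCAAT box bound by NF-Y. Their transcripts are known to be lowest in G1 and highest in G2 and mitosis.

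Both elements were looked for in the 250 bases before each start site of the RefSeq promoter table (GRCh38.p14), on both strands. The table held 41 of the 49 members, with 49 windows. The letters CCAAT, whose reverse complement reads ATTGG, were found before 30 of the 41 members (73.2%) against 37.0% of all 27305 genes in the table. The letters TTTGAA, whose reverse complement reads TTCAAA, were found before 22 of them (53.7%) against 16.1%, and both motifs before 20 of them (48.8%) against 5.79%. The median place of the match was 30 bases before the start for TTTGAA and 79 bases for CCAAT. A rarer form of the CHR, TTCGAA, was found before 1 member, PSRC1 (1.5% of all genes). A match is a run of letters and not a bound site.

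The 120 bases before the start are shown for 8 members on which the results below turn, in lower case with CCAAT and TTTGAA of either strand in capitals. CCNB1 encodes cyclin B1, CDK1 its kinase, PLK1 the polo-like kinase, CDC20 the APC/C activator, TOP2A the topoisomerase that untangles chromosomes, and CKS2 a small CDK-binding subunit. HJURP, the chaperone of the centromeric histone CENPA, and KIF2C, a kinesin that depolymerises microtubules, are shown because they fell in SCC4KO. For CDK1 the window of its second start is given, since the 120 bases before its first start held neither motif.
CCNB1, chr5:69167030-69167149, + strand: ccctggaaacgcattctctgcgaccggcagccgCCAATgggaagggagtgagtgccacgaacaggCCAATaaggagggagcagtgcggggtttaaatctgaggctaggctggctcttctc
CDK1, chr10:60778358-60778477, + strand: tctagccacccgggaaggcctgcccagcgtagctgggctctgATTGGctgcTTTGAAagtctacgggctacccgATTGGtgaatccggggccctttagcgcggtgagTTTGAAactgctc
PLK1, chr16:23678769-23678888, + strand: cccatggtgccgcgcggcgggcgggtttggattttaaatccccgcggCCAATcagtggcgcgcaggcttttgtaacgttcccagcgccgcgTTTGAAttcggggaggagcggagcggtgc
CDC20, chr1:43358861-43358980, + strand: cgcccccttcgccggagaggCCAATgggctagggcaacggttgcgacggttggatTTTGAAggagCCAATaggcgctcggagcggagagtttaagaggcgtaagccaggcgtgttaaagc
TOP2A, chr17:40417897-40418016, - strand: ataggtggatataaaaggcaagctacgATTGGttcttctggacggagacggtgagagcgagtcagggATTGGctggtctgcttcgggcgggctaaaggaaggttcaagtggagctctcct
CKS2, chr9:89311075-89311194, + strand: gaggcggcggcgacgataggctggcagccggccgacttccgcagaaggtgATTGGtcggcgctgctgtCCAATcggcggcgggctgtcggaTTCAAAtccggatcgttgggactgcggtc
HJURP, chr2:233854536-233854655, - strand: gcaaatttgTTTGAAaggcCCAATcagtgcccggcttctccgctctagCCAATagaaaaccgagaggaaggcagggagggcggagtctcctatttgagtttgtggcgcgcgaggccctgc
KIF2C, chr1:44739717-44739836, + strand: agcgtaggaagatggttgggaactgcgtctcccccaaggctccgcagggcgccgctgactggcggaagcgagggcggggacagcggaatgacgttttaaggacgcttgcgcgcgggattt
CDK1, PLK1, CDC20, CKS2 and HJURP held both motifs in these 120 bases, CCNB1 and TOP2A held CCAAT alone, and KIF2C held neither.

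The wells of HEK293T held between 62782 and 195230 UMIs, those of WT between 18004 and 925612 and those of SCC4KO between 44947 and 320102, spike-in RNA left out, and a SMART-seq cell held at least 812067 reads. The members summed to between 241 and 932 UMIs in the median well of a library, so counting alone gave the share of a well a CV (SD over mean) of 3.32 to 6.58%, and the exact 95% intervals below cover that error only. The well barcodes of the LAST-seq libraries came from 1 set, so that the HEK293T LAST-seq libraries shared all 10 and the WT batches 70. Of 6 markers of the HEK293T line fixed for this work, NEFL had between 8 and 61 UMIs in the LAST-seq HEK293T libraries and 0 in both WT batches, while PAX2 was lower in HEK293T than in WT (log2 -4.68, adjusted p = 0.00729 by edgeR), so the markers did not all follow the line's name.

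In LAST-seq, the members took 0.340% of the UMIs of HEK293T cells in replicate 1 (interval 0.331 to 0.350%) and 0.492% in replicate 2 (0.481 to 0.503%). The replicates had different spike-in mixes, A60 in replicate 1 and ERCC in replicate 2. The 15-pg RNA wells held 0.293% (0.283 to 0.303%) and the lysate wells 0.294%. The cells of replicate 1 ranged from 0.263 to 0.431% around a median of 0.337%, those of replicate 2 from 0.424 to 0.675% around 0.454%, and the RNA wells from 0.279 to 0.314% around 0.291%. Every cell of replicate 2 thus lay above every RNA well, whereas the cells of replicate 1 lay on both sides of them. The CV was 13.2 and 15.4% over cells and 3.66% over RNA wells.

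The spread was set against counting error as the variance over the variance that Poisson counts of the same depth would have, for which 1 means no spread beyond counting and 1.88 is the 95% point for 10 wells. This ratio was 8.30 and 18.1 for the cells, 0.415 for the RNA wells and 1.12 for the lysate wells. Once the counting part was taken out, a CV of 12.3 and 14.9% was left for cells and 1.80% for lysate. For RNA it was set to 0%, because the CV of 3.66% was below the 5.59% that counting gives. Cells of an ungated culture therefore differed in their member share by more than the RNA wells and the lysate wells did. With every well thinned to 60000 UMIs the CV was 16.8 and 13.6% for cells and 8.83% for RNA wells.

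CEL-seq2 showed a wider range in the same line. Its cells ran from 0.331 to 0.900% with a median of 0.601% in replicate 1, and from 0.212 to 0.794% with a median of 0.405% in replicate 2. The CV was 30.9 and 44.5%, and the variance over counting variance was 94.9 and 125, against 9.07% and 2.65 in CEL-seq2 lysate wells. The highest cell stood 1.5 and 1.96 times above its library's median in CEL-seq2 and 1.28 and 1.49 times in LAST-seq. In SMART-seq the 6 cells held between 0.733 and 1.14% of reads, with a CV of 17.5%. Each assay had its own sorted cells, so the assay and the cells drawn cannot be told apart.

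**Figure D1:**
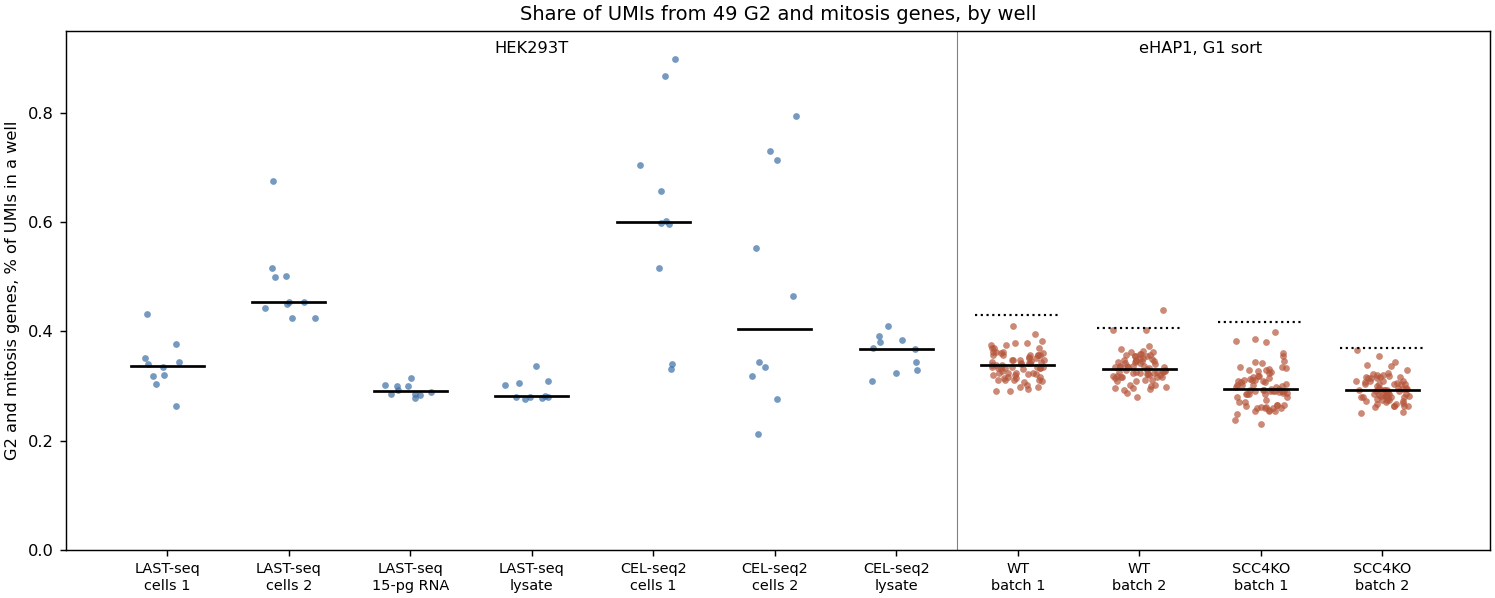
Share of all UMIs taken by the 49 member genes (vertical axis, percent) in every well of the 11 libraries with UMIs (horizontal axis), with a line at each library's median and, for eHAP1, a dotted line at 3 MAD above it (on the log2 scale). The RNA wells stay between 0.279 and 0.314%, CEL-seq2 HEK293T cells reach 0.900%, and the G1-sorted eHAP1 cells lie between 0.230 and 0.439%.

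The kinases and cyclins that drive entry into mitosis are described first. Levels are given as UMIs per 1000000 UMIs of the well, or of all wells of a library or batch, written as CPM, and compared within a gene. CCNB1 ran from 30.4 to 161 with a median of 56.9 over LAST-seq cells of replicate 1, from 72.4 to 158 with a median of 115 in replicate 2, and from 16.9 to 96.7 with a median of 59.1 over RNA wells. In replicate 1 a single cell at 161 stood apart, the next being at 68.3. In CEL-seq2 it ran from 0 to 213 with a median of 99.5 in replicate 1 and from 11 to 125 with a median of 41.2 in replicate 2.

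CDK1, the kinase itself, ran from 22.8 to 178 in LAST-seq replicate 1 and from 186 to 333 in replicate 2, so that no cell of replicate 2 was below any cell of replicate 1. PLK1, needed for spindle assembly, ran from 21.6 to 103 with a median of 51.1 and from 33.2 to 93.4 with a median of 66.8 in LAST-seq, against 10.1 to 50.2 in RNA wells. In CEL-seq2 its range was 6.71 to 364 and 0 to 150. The LAST-seq lysate wells ran from 0 to 63.7 and the CEL-seq2 ones from 22 to 89.4. The highest PLK1 cells of both LAST-seq libraries were thus above all LAST-seq RNA and lysate wells, and the lowest were within their range.

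AURKA, the spindle-pole kinase, ran from 0 to 73.8 in LAST-seq replicate 1 and from 76.2 to 198 in replicate 2, with no overlap, and RNA wells ran from 40.2 to 92.9. CDC20 ran from 15.2 to 64.6 and from 13.3 to 49.6 in LAST-seq, and from 0 to 57.6 in RNA wells, where the 57.6 was 1 well and the next was at 16.9. Its CEL-seq2 range was 13.4 to 228 and 11 to 294.

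Among the chromosome proteins, TOP2A ran from 24.2 to 111 with a median of 51.2 in LAST-seq replicate 1, from 81.7 to 245 with a median of 142 in replicate 2, and from 76.8 to 141 in RNA wells. In CEL-seq2 it ran from 160 to 848 and from 87.6 to 905. CENPF, which joins the kinetochore late in G2, ran from 37.9 to 154 and from 68.4 to 187 in LAST-seq, from 23 to 50.2 in RNA wells, and from 228 to 1096 and from 121 to 862 in CEL-seq2. CKS2, the second most abundant member in LAST-seq HEK293T cells after RANGAP1, ran from 129 to 322 and from 205 to 484, against 197 to 373 in RNA wells. For CENPF all cells of replicate 2 and 9 of 10 of replicate 1 were above the highest RNA well, while for CKS2 the ranges overlapped. The LAST-seq lysate wells held CENPF at 15.9 to 118 with a median of 57.4, which overlapped the cells of both replicates.

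**Figure D2:**
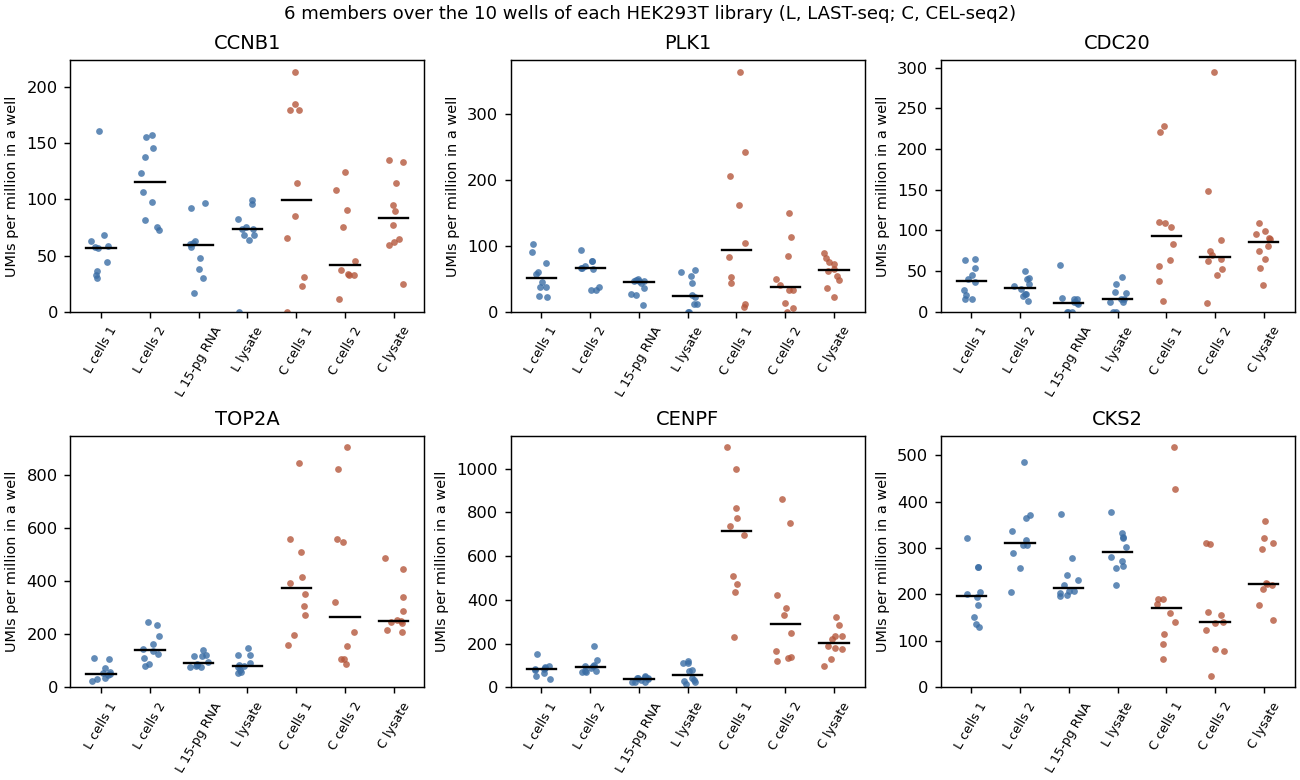
CPM of 6 landmark members (one panel each) in every well of the HEK293T libraries, with a line at the median. CENPF lies at 23 to 50.2 in RNA wells and reaches 1096 in CEL-seq2 cells, and CCNB1 has a single high cell at 161 in LAST-seq replicate 1.

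The same ratio to counting variance was taken gene by gene, where a gene averaged 1 UMI or more over the wells. In LAST-seq cells 10 of 48 tested members were over 1.88 in replicate 1 (9.99% of all genes tested were) and 14 of 48 in replicate 2 (10.4% of all genes). In RNA wells 4 of 47 were over (6.57%) and in lysate wells 4 of 45 (8.45%). In CEL-seq2 cells it was 45 of 49 (50.2%) and 45 of 48 (46.9%), and in its lysate 11 of 47 (23.5%). An excess over counting was therefore seen gene by gene for nearly the whole list in CEL-seq2 and for a minority of it in LAST-seq, where the sum over members showed it more plainly. The percentages of all genes were not matched for level. The median mean UMI per well was 7.7 and 12.3 for members in LAST-seq cells, against 4.1 and 4.4 for all genes tested. In CEL-seq2 cells it was 14.3 and 9.35 against 5 and 4.2.

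In CEL-seq2 replicate 1 the ratio was highest for CKS2 (17.1), PLK1 (16.7), CENPE (16.7), TOP2A (16.5) and CENPF (16.2). In replicate 2 it was highest for TOP2A (37.0), CENPF (27.5), MKI67 (15.8) and UBE2C (14.3). CENPE is the kinetochore kinesin, MKI67 coats mitotic chromosomes, and UBE2C is the APC/C's ubiquitin-conjugating enzyme. In LAST-seq it was highest for CCNB1 (3.10), AURKA (2.98), CDK1 (2.92) and CKS2 (2.77) in replicate 1. In replicate 2 it was highest for CENPA (5.63), TOP2A (3.31) and LBR (2.93), the lamin B receptor. CENPA was named after its value was seen. CDK1 (1.57), CCNB1 (1.54), AURKA (1.32), PLK1 (1.12) and CDC20 (0.67) were below 1.88 in replicate 2, and CDC20 also in replicate 1 (1.34), so those ranges were not shown to be wider than counting gives. In RNA wells CDC20 was above it (2.2).

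CKS1B and CKS2 encode near-identical CDK-binding subunits, and their spread was compared. In CEL-seq2 replicate 1 the ratio was 1.23 for CKS1B and 17.1 for CKS2, and in replicate 2 it was 2.12 and 8.74. In LAST-seq CKS1B had 0.86 and 0.88 where CKS2 had 2.77 and 2.58. CKS2 had the higher ratio in these 4 HEK293T cell libraries. CKS2 was also the higher in the RNA wells, with 0.933 for CKS1B and 1.295 for CKS2, and in the CEL-seq2 lysate wells, with 1.251 and 1.601. These values were all below 1.88. That order was therefore not particular to cells. In the LAST-seq lysate wells the order was the reverse, 2.26 for CKS1B and 0.58 for CKS2. It was also the reverse in eHAP1 cells, with 1.60 and 1.57 in WT batch 1, 2.01 and 1.77 in WT batch 2, 1.78 and 1.06 in SCC4KO batch 1, and 1.53 and 1.02 in SCC4KO batch 2. The 2 genes also differ in level and share related sequence, and the difference was not tested. Thinned to 60000 UMIs per well, LAST-seq left 5 of 40 and 4 of 47 members over the threshold (8.42 and 7.86% of genes) and CEL-seq2 32 of 47 and 34 of 46 (29.9 and 34.8%), so the count of members in LAST-seq depended on depth.

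**Figure D3:**
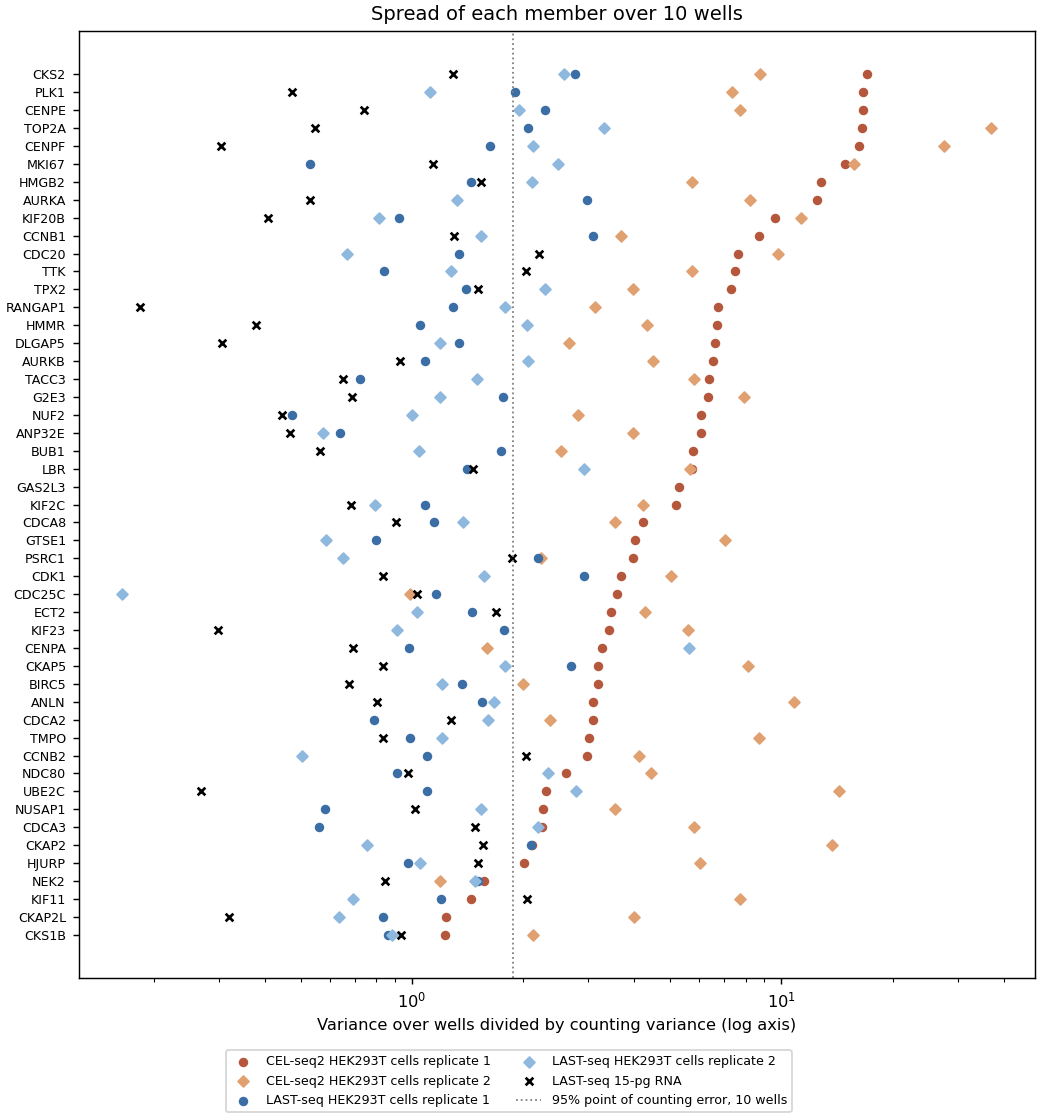
Variance over counting variance (log axis) of each member gene across the 10 wells of a library, for HEK293T cells and RNA wells, where the gene averaged 1 UMI or more, with a dotted line at 1.88. CEL-seq2 cells reach 37.0 for TOP2A, LAST-seq cells 5.63 for CENPA, and RNA wells 2.2 for CDC20.

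Members also moved together from cell to cell. Members at even and odd places of the list gave 2 shares whose Spearman rho over 10 wells was 0.42 and 0.89 in LAST-seq cells, 0.89 and 0.95 in CEL-seq2 cells, and -0.81 in RNA wells. The median rho of a member with the sum of the others was 0.273 and 0.333 in LAST-seq cells (above 0 for 44 and 36 of 49), 0.552 and 0.565 in CEL-seq2 cells (44 and 45 of 49), and -0.127 in RNA wells (18 of 48). In lysate wells it was -0.152 in LAST-seq (15 of 49) and 0.104 in CEL-seq2 (34 of 49). A second list of 40 G2 and mitosis genes, with no gene in common, followed the member share with a rho of 0.636 and 0.733 over LAST-seq cells and 0.939 and 0.927 over CEL-seq2 cells, against -0.188 in RNA wells, 0.212 in LAST-seq lysate wells and 0.733 in CEL-seq2 lysate wells, where the 2 sets of members had a rho of 0.15. These are descriptions over 10 wells that share a library and a denominator, so they carry no p-value.

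A list of 43 S-phase genes, for DNA replication, went the other way. Its rho with the member share was -0.564 and -0.636 in LAST-seq cells and -0.903 and -0.176 in CEL-seq2 cells. The RNA wells gave -0.455, where both shares had no more spread than counting gives (0.415 for members and 0.58 for S-phase genes), so a negative rho of this size also arose among wells of 1 RNA. The S-phase share itself varied over cells by 4.50 and 10.8 times counting variance in LAST-seq and 75.7 and 56.6 times in CEL-seq2.

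**Figure D4:**
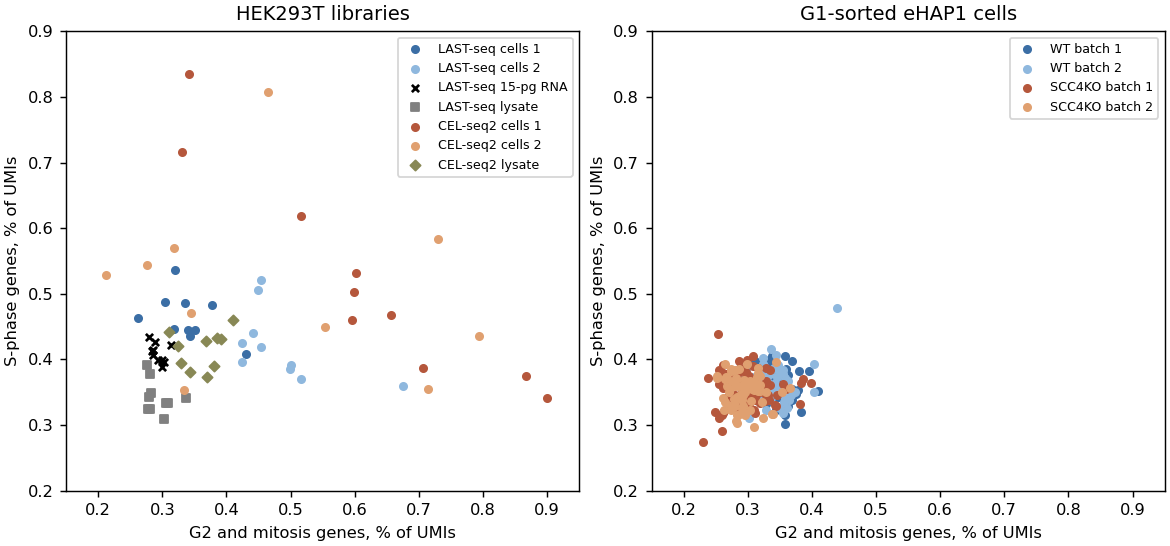
Share of UMIs of the 43 S-phase genes (vertical axis, percent) against that of the 49 members (horizontal axis, percent), 1 point per well, for HEK293T libraries (left) and eHAP1 cells (right). CEL-seq2 cells spread along both axes (rho -0.903 in replicate 1), while the RNA wells and the eHAP1 cells form tight groups, apart from the shallow WT batch 2 cell at 0.439 and 0.478%.

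The levels of single members differed between the libraries of the assays. CENPF held 665 and 379 CPM in CEL-seq2 cells of replicates 1 and 2, against 85.0 and 99.4 in LAST-seq. CENPE held 245 and 144 against 17.6 and 23.2, and MKI67 412 and 309 against 115 and 156. RANGAP1, the Ran GTPase activator at the nuclear pore, was the most abundant member in LAST-seq with medians of 291 and 450.4. The 8 centromere and kinetochore members took 19.7 and 16.4% of the members' UMIs in CEL-seq2 and 8.40 and 11% in LAST-seq. With 2 libraries per assay no test across genes was run on this difference.

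The G1-sorted WT cells held about the member share of the cycling HEK293T cells of replicate 1, and SCC4KO cells held less. WT batches held 0.338 and 0.335% (intervals 0.334 to 0.343% and 0.332 to 0.338%) and SCC4KO batches 0.298 and 0.295% (0.294 to 0.303% and 0.292 to 0.298%). The 4 batches lay between the LAST-seq RNA wells at 0.293% and HEK293T replicate 1 at 0.340%, and below replicate 2 at 0.492%. Of the WT cells, 73 of 73 and 75 of 75 were at or above the lowest LAST-seq HEK293T cell (0.263%, in replicate 1), and of the SCC4KO cells 64 of 77 and 73 of 76. The lowest cell of replicate 2, at 0.424%, was above the highest cells of WT batch 1 (0.410%) and of the SCC4KO batches (0.399 and 0.366%). The highest cell of WT batch 2 was at 0.439%. The shares were more alike from cell to cell than in HEK293T: the CV was 7.38 and 8.03% in WT and 11.6 and 7.86% in SCC4KO, and 4.56, 6.39, 9.65 and 6.22% after the counting part was taken out, against 12.3 and 14.9% in LAST-seq HEK293T cells. In these comparisons of level and spread, cell line, sort, number of cells pooled and depth differ together and cannot be told apart.

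Gene by gene, 10 of 49 members were higher in HEK293T than in WT eHAP1 by edgeR's quasi-likelihood test at a Benjamini-Hochberg adjusted p under 0.05 (15.0% of 13094 genes were), and 6 were lower (18.6%). The median log2 fold over members was 0.04, against -0.05 over all genes tested. Those higher were led by UBE2C with 158 UMIs in HEK293T and 10 in WT, then by KIF23, a cytokinesis kinesin (log2 1.74, SE 0.34, adjusted p = 0.0114), and RANGAP1 (1.33, SE 0.17, adjusted p = 0.00271). CKAP2 (1.29), the checkpoint kinase TTK (1.26) and the spindle assembly factor TPX2 (1.23) followed. Cell line, sort, number of cells pooled and depth cannot be told apart in these folds.

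Those lower in HEK293T were led by KIF2C (log2 -1.79, SE 0.36, adjusted p = 0.0121), CKS1B (-1.45, SE 0.13, adjusted p = 0.000783) and TACC3, a spindle protein (-1.22, SE 0.24, adjusted p = 0.0107). The landmarks CDK1 (0.46, adjusted p = 0.418 by edgeR), PLK1 (0.04, 0.853), CDC20 (0.05, 0.894), CCNB1 (-0.42, 0.218), TOP2A (0.02, 0.97) and AURKA (0.78, 0.332) did not pass. The counts turned on single libraries: without HEK293T replicate 1, 23 members were higher, without replicate 2, 17 were lower and CDK1, TOP2A and AURKA were at -0.44, -0.72 and -0.74, and without WT batch 1, 6 were higher. The tables of both lines also differ in genes that all cells use, chosen after their values were seen: UBB had 0 UMIs in WT and 204 and 192 CPM in HEK293T, and TUBB 63.7 and 63.5 CPM in WT and at most 1 UMI in a HEK293T library. The part of this in the fold of UBE2C was not tested.

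Cells that had escaped the G1 gate were sought as cells more than 3 scaled median absolute deviations (MAD) above their batch's median, on the log2 of the member share. In WT batch 1, 0 of 73 cells passed, and 3 cells, the limit set on a count of 0, would be 4.11%. In SCC4KO 0 of 77 and 0 of 76 passed, with limits of 3.90 and 3.95%. The exact intervals of these 3 batches reached 4.93, 4.68 and 4.74%. In WT batch 2, 1 of 75 cells passed (1.33%, exact interval 0.034 to 7.21%). The thresholds were 0.431, 0.406, 0.417 and 0.370%, and 1, 2, 4 and 3 cells lay within 1 MAD of them. The highest cell of a batch was 1.21 to 1.35 times its median. In HEK293T, with no gate on the cell cycle, the highest cell was 1.28 times the median in LAST-seq replicate 1 and 1.49 times in replicate 2. The eHAP1 thresholds stood over batch medians of 0.338, 0.330, 0.295 and 0.292%. A cell in G2 or mitosis could therefore have stayed below them. The counts and their limits are for cells above the threshold and do not bound how many cells escaped the gate.

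The cell above the threshold was the shallowest of its batch, with 18004 UMIs against a median of 143765. It held 0.439% of UMIs in members and had 29 of them detected, against a median of 46. Its landmark counts were 1 UMI of CCNB1, 3 of PLK1, 1 of CDC20, 2 of TOP2A and 5 of CENPF. Its S-phase share was also up, 0.478% against a median of 0.362%, and at 60000 UMIs per cell it could not be scored. At 2 MAD the counts were 1, 3, 4 and 3 cells, and at 5 MAD they were 0 in all 4 batches.

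By the median rho, the members moved together less in the G1-sorted eHAP1 cells than in HEK293T cells. The sets at even and odd places of the list had a rho of 0.13 and 0.28 in WT, and of 0.56 and 0.31 in SCC4KO. In LAST-seq HEK293T cells that rho was 0.42 and 0.89, so SCC4KO batch 1 lay above replicate 1. Cell line, sort, number of cells pooled and depth cannot be told apart here. The median rho of a member with the sum of the others was 0.061 and 0.078 over WT cells and 0.101 and 0.111 over SCC4KO cells, and the share of the second G2 and mitosis list followed the member share with a rho between 0.178 and 0.418. Of the tested members 21 of 47 and 28 of 47 exceeded counting variance in WT (36.5 and 57.2% of genes did), and 19 of 42 and 25 of 47 in SCC4KO (47.1 and 43.4%). These shares were near those of all genes. The largest ratio of a member in WT was 2.69 in batch 1, for CDCA2, a chromatin-bound phosphatase subunit, with 2.10 in batch 2. In SCC4KO it was 2.59 in batch 2, for CDC25C, the phosphatase that activates CDK1, with 0.94 in batch 1. CDC25C had 1.03 and 2.51 in WT batches 1 and 2, so its excess was in 1 batch of each genotype. It was named after its value was seen.

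SCC4KO was compared with WT to ask how the members' transcripts stood in cells without the cohesin loader subunit. The guide RNA used against SCC4 is shown because it fixes where the gene was cut. Its letters, written as DNA, had 1 match in the hg38 genome, at chr19:19338850-19338869 on the + strand, in the coding part of exon 5 of MAU2, and were followed by the bases TGG.
SCC4 guide: gcacacgcttgagaaggacc
MAU2 held 44.3 and 41.2 CPM in the WT batches and 9.18 and 14.5 in the SCC4KO batches. The log2 fold was -1.87 (SE 0.18, adjusted p = 5.9e-05 by edgeR), so the transcript was lower in both batches though not absent.

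The member share was lower in SCC4KO, at a mean of 0.297% against 0.337% in WT, a ratio of 0.881. Both SCC4KO batches lay below both WT batches. With 2 batches against 2, the smallest p an exact permutation test allows is 0.333, two-sided, and that was its value. The batches of a genotype differed by a ratio of 0.989 in WT and 0.987 in SCC4KO, whereas the LAST-seq HEK293T replicates differed by 1.45. Over the list, 30 members had a lower level in SCC4KO and 19 a higher one, with differences that summed to -658 and 256 CPM. The 8 with the largest differences downward, CKS1B, AURKB, KIF2C, TACC3, CDK1, CKS2, HJURP and CDCA2, made up 78.3% of the first sum, and LBR and HMGB2, a chromatin-bending protein, 41.2% of the second.

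By edgeR 19 of 48 tested members were lower in SCC4KO (16.2% of 15057 genes were) and 9 were higher (13.3%). The median log2 fold was -0.17 over members and -0.01 over all genes. The direction was therefore mixed within the list, and it was mixed within the roles too. Of the 6 members of the group of CDK1 and its partners, 3 fell and 2 rose, of the 6 mitotic kinases 3 fell and 2 rose, and of the 14 spindle members 5 fell and 2 rose. Of the 8 centromere members 3 fell and 1 rose, of the 9 of chromatin and nuclear envelope 3 fell and 2 rose, and of the 3 of cytokinesis and the 2 tested of APC/C 1 fell in each.

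CDK1 and its cyclin parted. CDK1 held 106 and 106 CPM in the WT batches and 46.2 and 48.3 in SCC4KO (log2 -1.23, SE 0.07, adjusted p = 2.71e-06 by edgeR). CCNB1 held 104 and 103 in WT and 129 and 127 in SCC4KO (0.23, SE 0.06, adjusted p = 0.013). The CDK-binding subunits fell, CKS1B from 243 and 246 to 154 and 151 (-0.75) and CKS2 from 155 and 156 to 98.6 and 96.5 (-0.74). The batches of each genotype lay close together and apart from those of the other for all 4 genes. Over abundant genes the batches were closer than counting alone gives (values below), so this closeness does not measure replication.

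Among the kinases AURKB, the Aurora kinase of the chromosomal passenger complex, fell from 196 and 197 to 113 and 115 (log2 -0.85, adjusted p = 9.3e-06 by edgeR). PLK1 rose from 50.8 and 49.3 to 63.2 and 65.7 (0.30, adjusted p = 0.00924), as did the checkpoint kinase BUB1 (0.32, adjusted p = 0.00593). AURKA missed the threshold (-0.26, adjusted p = 0.0502), and so did CDC20 (-0.22, adjusted p = 0.289). Kinases of the same stage thus differed in sign.

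At the centromere HJURP had the largest fall of the list, from 69.7 and 74.9 CPM to 18 and 21.6 (log2 -1.91, SE 0.11, adjusted p = 3.12e-06 by edgeR). CENPF was at 116 and 117 in WT and 117 and 116 in SCC4KO (-0.07, adjusted p = 0.441), and NDC80, which binds microtubules at the kinetochore, rose (0.26, adjusted p = 0.0337). On the spindle KIF2C fell from 124 and 126 to 49.9 and 48.7 (-1.41, SE 0.07, adjusted p = 1.42e-06), TACC3 from 153 and 156 to 84.3 and 78.2 (-1.0) and GTSE1, a microtubule-bound protein, from 23.6 and 13.8 to 9.33 and 9.94 (-1.0, adjusted p = 0.0262).

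In chromatin and the nuclear envelope CDCA2 fell from 27.2 and 31.8 CPM to 11.4 and 8.31 (log2 -1.68, SE 0.21, adjusted p = 0.000332 by edgeR) and TOP2A by a smaller step (-0.38, adjusted p = 0.00168). HMGB2 rose from 43.6 and 39.6 to 76.1 and 76.1 (0.81, SE 0.07, adjusted p = 2.64e-05) and LBR from 104 and 103 to 173 and 174 (0.68, SE 0.06, adjusted p = 3.05e-05). MKI67, the proliferation marker, was at 153 and 153 in WT and 152 and 151 in SCC4KO (-0.09, adjusted p = 0.319).

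**Figure D5:**
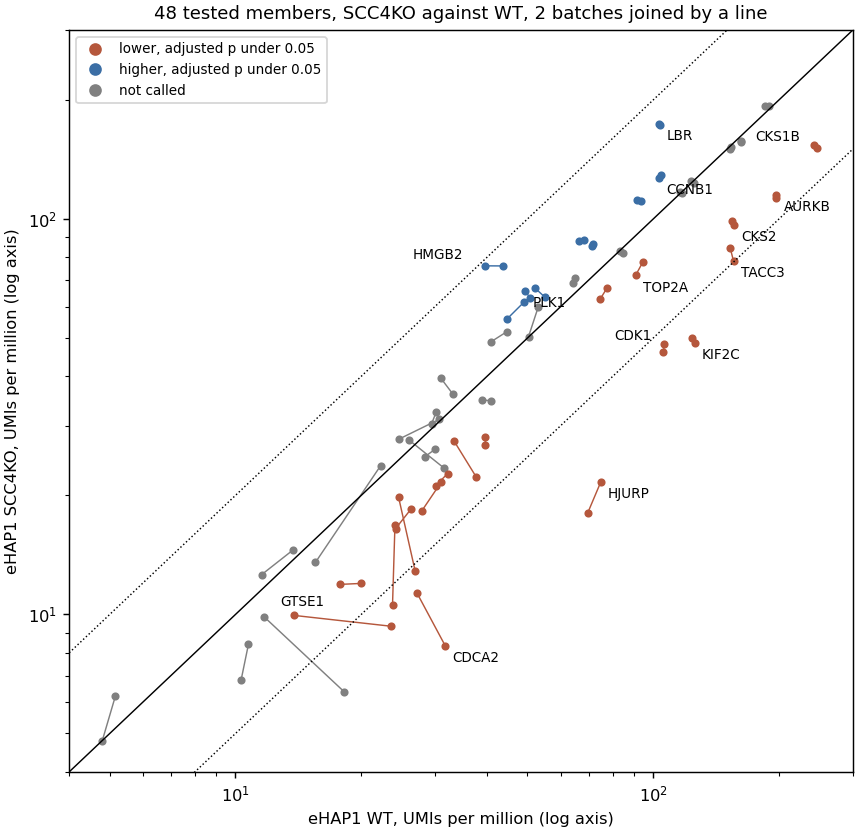
CPM of the 48 tested members in SCC4KO (vertical, log axis) against WT (horizontal, log axis), the 2 batches of a gene joined by a line, with the diagonal of no difference and dotted lines at 2-fold. HJURP, KIF2C, CDK1 and CDCA2 lie beyond 2-fold below the diagonal in both batches, and LBR and HMGB2 lie above it.

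The p-values above are too small as a measure of replicates. The closeness of the batches in shares, levels and 2-fold differences is no measure of replicates either. Over genes with at least 1000 UMIs, the median squared difference between batches in units of counting error was 0.206 in WT and 0.116 in SCC4KO, where counting alone gives 0.455, against 5.12 between the LAST-seq HEK293T replicates. The authors ran ComBat-seq, a batch correction for counts, on the eHAP1 cells before inferring bursts, and whether the deposited eHAP1 UMIs had passed it is not given in the sources used here. With the spread between the HEK293T replicates put in their place, an alternative added after seeing the data, edgeR called 1 member lower (HJURP, adjusted p = 0.0499) and 0 higher, with 6 of 48 at an unadjusted p under 0.05, and MAU2 itself had an adjusted p of 0.318. DESeq2 on the batches as deposited called 19 lower and 6 higher.

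By size alone, 4 members (CDCA2, CDK1, HJURP and KIF2C) were more than 2-fold lower in both batches (5.19% of 15559 genes were) and 0 of 48 were more than 2-fold higher (5.96%). Without WT batch 2 the test called 11 members lower, and without SCC4KO batch 1 it called 4 higher. Calls of 7 of the members named in the text were lost in at least 1 of the fits that left out 1 batch. Of those with a call given above they were CCNB1 without SCC4KO batch 1 (adjusted p = 0.21), GTSE1 without WT batch 1 (0.18) and NDC80 without SCC4KO batch 1 (0.29), without WT batch 1 (0.11) or without WT batch 2 (0.15). The others were CENPE in each of the 4 fits, TPX2 in all but that without SCC4KO batch 2, TTK without WT batch 1 or without WT batch 2, and CKAP5 without SCC4KO batch 1.

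The second list of G2 and mitosis genes had 16 of 39 tested genes lower and 4 higher, where 16.2% of all genes were lower and 13.3% higher, and a median log2 fold of -0.43, led by SGO1, the protector of centromeric cohesin (-2.23), and TROAP (-1.43). Of 30 tested regulators of such genes 10 were lower and 3 higher, with a median of -0.19, and LIN9, a subunit shared by DREAM and the B-MYB complex, fell by 1.86 on the log2 scale (adjusted p = 5.07e-06 by edgeR). FOXM1 rose from 1 and 4 UMIs to 25 and 26, too few for a useful fold. Of the 40 tested S-phase genes 11 were lower and 8 higher, with a median of -0.05.

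The G1 list had 6 of 15 lower and 4 higher, with a median of -0.07. RB1, which with E2F holds cells in G1, fell by 1.26 and E2F1 by 1.18 on the log2 scale, and CDKN1A, an inhibitor of CDKs, was higher by 1.32. As shares of UMIs, the second G2 and mitosis list stood at 0.337% in WT and 0.301% in SCC4KO, the S-phase list at 0.363 and 0.354%, and the G1 list at 0.0960 and 0.0785%. Of 5 tested HEK293T markers 3 were higher in SCC4KO and 0 lower: NEFL had 0 UMIs in both WT batches and 51 and 169 in SCC4KO, and the share of all 6 markers was 0.00671% in WT and 0.0101% in SCC4KO. With the spread of the HEK293T replicate pair, chosen after the data were seen, edgeR called 0 genes of the second G2 and mitosis, regulator, S-phase and G1 lists in either direction. At an unadjusted p under 0.05 it had 4 lower and 0 higher of the second G2 and mitosis list, 1 and 1 of the regulators, 1 and 1 of the S-phase genes, and 2 and 0 of the G1 genes.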

How the data were processed

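HEK293T and eHAP1 cells, HEK293T lysate and 15-pg RNA were measured as UMIs per gene and well. The authors demultiplexed with bcl2fastq 2.20, trimmed with cutadapt and counted with zUMIs against GRCh38, subsampled reads to an equal depth, collapsed UMIs by identity and deposited whole-number counts. They removed shallow eHAP1 wells and adjusted eHAP1 batches with ComBat-seq for their burst inference. Whether the deposited eHAP1 counts precede that step is not given in the sources used here, and it could change how far batches differ. SMART-seq values were read counts. Here spike-ins were dropped, and shares, exact 95% intervals and variances over counting variance were computed with Python 3.11.15. Wells were sorted cells, so no doublet caller was run. UMIs summed per library or batch were tested with edgeR 4.0.16 (TMM, quasi-likelihood, filterByExpr) over all genes at an adjusted p of 0.05, with DESeq2 1.42.0 as alternative, and the steps were tested on simulated data. P-values measure the spread between these batches, whose origin as separate cultures is not given. Named members were the 10 most abundant in LAST-seq HEK293T cells, the 5 with the widest spread there, 9 landmarks, and the largest changes of each comparison (6 each way for SCC4KO, 5 each way for HEK293T). The members and lists were chosen with earlier results of these data known.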

Additional observations from a re-analysis of the deposited data

How the results depend on the processing

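Other processing moved shares and counts of calls, and AURKA, CDK1 and TOP2A changed sign in HEK293T against WT. With mitochondrially encoded genes left out of the total, the member share was 0.408 and 0.574% in LAST-seq HEK293T cells, 0.360% in RNA, 0.364% in lysate, 0.426% in CEL-seq2 lysate, 0.427 and 0.424% in WT and 0.378 and 0.374% in SCC4KO. Without CKS2 it was 0.270% in RNA and 0.264% in lysate. The spread of the share over counting variance was 34.3 and 60.9 in CEL-seq2, 5.23 in LAST-seq replicate 2 and 1.37 in RNA when thinned to 60000 UMIs, and 248, 253 and, in CEL-seq2 replicate 1, 284 with reads in place of UMIs, which are not independent molecules. Reads raised the CV of LAST-seq cells to 31.0 and 27.8%. With a threshold of 3 on variance over mean, 1 and 2 members passed in LAST-seq cells, 0 in RNA, 1 in lysate and 3 in CEL-seq2 lysate. At the threshold of 1.88 with wells thinned to 60000 UMIs, 5 and 4 passed in LAST-seq cells and 7 in LAST-seq lysate. Cells above the high-share threshold in WT batches 1 and 2 and SCC4KO batches 1 and 2 numbered 1, 3, 4 and 3 at 2 MAD. They numbered 0 in WT batch 2 at 5 MAD, 1 and 0 in WT when thinned, and 3 in WT batch 2 without CKS2. At or above the lowest LAST-seq HEK293T cell were 73, 75, 64 and 73 cells. For HEK293T against WT, 11 members were lower with no filter on low counts, and leaving out 1 library gave 6 to 23 higher and 4 to 17 lower. AURKA, CDK1 and TOP2A turned to -0.74, -0.44 and -0.72 without HEK293T replicate 2, and were 1.55, 1.06 and 0.57 without replicate 1. For SCC4KO against WT, the HEK293T spread gave 0 higher and 1 lower, 2-fold in both batches 0 higher and 4 lower, and leaving out 1 batch 4 to 10 higher and 11 to 16 lower. The deviations of WT and SCC4KO batches of the same number from their genotype's mean had a correlation of 0.00627. With 2 batches per genotype both numbers give the same value by construction. It cannot tell whether batch numbers pair the samples, since the counts may already have been corrected for batch. With the batch number as a replicate block 6 members were higher and 20 lower, and CKAP5 and TPX2 lost their calls among the members named. Where a genotype was left with 1 batch it was assumed to vary like the other. The cause of these shifts was not tested beyond what each setting changes. Depth limits single genes in single wells.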
